A study of Mus musculus with 8 samples.

Results

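The genes of the translation initiation factors were followed in RNA-seq of sorted mouse splenic B-1a cells. The members are the rows of the normalized count table whose symbol is Eif followed by a digit. The sex-linked pair Eif2s3x and Eif2s3y was left out, and 50 of the 10783 genes in the table were members. By symbol they were 5 Eif1, 13 Eif2, 12 Eif3, 15 Eif4, 4 Eif5 and 1 Eif6 genes. The rule takes names and not functions. The Eif2 genes therefore include the 4 kinases that inhibit eIF2 (Eif2ak1 to Eif2ak4), and the Eif4 genes include the Eif4ebp inhibitors of eIF4E.

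The study removed CTLA-4, an inhibitory receptor, from B cells and compared B-1a cells, early-developing B cells that make natural antibody, with those of controls. There were 3 libraries of IgMhi B-1a cells from control mice, 2 of IgMhi B-1a cells from CKO mice and 3 of IgMneg B-1a cells from CKO mice. CKO mice were Ctla4fl/fl and controls, which the labels call wild type, were Ctla4+/+. All 8 libraries are from mice that carry 1 copy of a Cre that deletes in B cells, on a Balb/c background, and the methods give an age of 2 to 3 months. Control and CKO mice came from separate crosses, so genotype and breeding cannot be told apart. IgMhi B-1a cells were sorted as B cells that were IgMhi IgDlo/neg CD21lo/neg CD43+ CD5+. The IgMneg B-1a cells were CD5+ CD43+ cells without surface IgM or IgD. Both sorts hold a CKO library 2 and a CKO library 3, taken here to come from the same mouse.

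Translation of most mRNAs starts when a small ribosomal subunit is brought to the capped end of the mRNA and scans to a start codon. The eIF2 complex delivers the initiator tRNA, eIF2B recharges eIF2 with GTP, and the eIF2 kinases shut this step down under stress. The eIF3 complex is the scaffold on the small subunit, while eIF1 and eIF1A keep scanning accurate. In the cap complex eIF4E binds the cap, eIF4A unwinds RNA with the help of eIF4B and eIF4H, and eIF4G holds them together and reaches to the poly(A)-binding protein. The Eif4ebp proteins compete with eIF4G for eIF4E and are switched off by mTOR. At the start codon eIF5 triggers GTP hydrolysis by eIF2, and eIF5B joins the large subunit. Resting lymphocytes are known to translate little, and activation raises their translation.

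Reads in genes ranged from 1404660 in control library 2 to 10289686 in control library 3, and the ribosomal RNA precursor Rn45s took 4.62% to 25.1% of them. Replicates had Pearson correlations of 0.937 to 0.974 on the log2 scale and differed by more than counting error in every pair. Ctla4, the targeted gene, was at 42.2, 43.1 and 76.8 normalized counts in controls, 36.2 and 28.5 in CKO IgMhi and 48.5, 73.9 and 33.0 in IgMneg libraries. The CKO IgMhi values were below the controls (log2 -0.68, limma adjusted p = 0.633), the IgMneg values overlapped with them (log2 -0.08, adjusted p = 0.933), and the counts do not separate deleted from remaining exons, so this gene does not check the labels. Of the other B-1a markers, all above 0 in every library, Spn was higher (log2 0.85, adjusted p = 0.0268) and Bhlhe41 lower (-0.73, adjusted p = 0.0196) in IgMneg than in CKO IgMhi cells, and Cd5 and Zbtb32 did not pass. The B-cell genes Cd79a, Cd79b, Ms4a1 and Pax5 were above 0 in every library as well. Of these, Cd79a and Pax5 were lower in IgMneg than in CKO IgMhi B-1a cells, with log2 differences of -0.83 and -0.56, as was the proliferation marker Mki67 with -1.38. Of 7 T-cell markers the table held Cd3g and Lck, whose summed level was 393 to 420 normalized counts in control IgMhi, 364 to 509 in CKO IgMhi and 862 to 1031 in IgMneg libraries. IgMneg library 3 stood apart, with a myeloid sum (6 of 8 markers in the table) of 561 normalized counts against 77.0 to 208 in the others, the erythroid gene Alas2 at 121 against at most 8.86, and correlations of 0.937 and 0.938 with the other IgMneg libraries, which correlated at 0.971. The Y-linked Eif2s3y was at 0 or 0.755 normalized counts in the libraries of CKO mice 1 and 2 and at 153 to 303 in the others, so the sexes differ between mice. Of 5 plasma cell markers the table held 4, all with negative log2 differences of IgMneg over CKO IgMhi. Only Prdm1 passed (-0.79, limma adjusted p = 0.0251). Their summed level, mostly Igj, was 25060, 20320 and 6045 normalized counts in control libraries 1 to 3, so the controls were not uniform. It was 7851 to 11600 in CKO IgMhi and 4095 to 8050 in IgMneg libraries. The part of plasma cell, T-cell, myeloid and erythroid RNA, sex and cell division in the results below was not tested. In sorted bulk samples, fewer cells of a type and less RNA per cell cannot be told apart.

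All 50 members reached 10 normalized counts in 2 or more libraries, the level a gene needed to be tested, and their recovered reads reached down to 7 in a library. Levels are compared between genes as normalized counts per kb of annotated exon, averaged over the 8 libraries. On this scale the Eif3 genes were the most abundant family, with a median of 507 per kb, against 181 for Eif5, 109 for Eif4 and 50.2 for Eif2. Eif3e stood at 1319 and Eif3k at 1254 per kb, and even the lowest Eif3 gene, Eif3b, was at 248 per kb. Eif2s1, which encodes eIF2 alpha, led its family at 209 per kb, and the eIF2B gene Eif2b3 was its lowest at 14.3 per kb. Among Eif4 genes the level ran from 967 per kb for the helicase cofactor Eif4b to 7.33 per kb for Eif4e3. The paralogs Eif5a and Eif5a2 were at 531 and 8.19 per kb.

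The question between the sorts was which genes differ between B-1a cells of CKO mice without and with surface IgM. Fell and rose stand for called lower and called higher in the IgMneg sort, and no cells were followed over time. In IgMneg against CKO IgMhi B-1a cells 6 of 50 members fell (Eif1, Eif3f, Eif4g2, Eif4g3, Eif4ebp2 and Eif5b) and 0 rose. The test was limma after adding 1 to each normalized count and taking log2, with Benjamini-Hochberg adjustment over 10627 genes and an adjusted p threshold of 0.05. The 6 are 12% of the members, where 5.75% of all genes tested fell and 1.78% rose. At an unadjusted p under 0.05, 13 members were higher (26%, against 10.4% of all genes) and 8 were lower (16.0%, against 13.8%). The libraries of both sorts did not overlap for 20 members that were higher and 12 that were lower in IgMneg cells (40.0% and 24.0%, against 20.3% and 22.0% of all genes). With mouse number as a random block, 6 members rose (Eif2b5, Eif3i, Eif3k, Eif3l, Eif3m and Eif4a3; 12%, against 5.67% of all genes) and 8 fell, the 6 above with Eif3b and Eif4enif1 (16.0%, against 9.69%). Recovered reads gave 0 members higher and 7 lower in edgeR, where all genes gave 2.77% and 7.67%, and 4 higher and 7 lower in DESeq2, where all genes gave 4.46% and 8.54%.

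**Figure D1:**
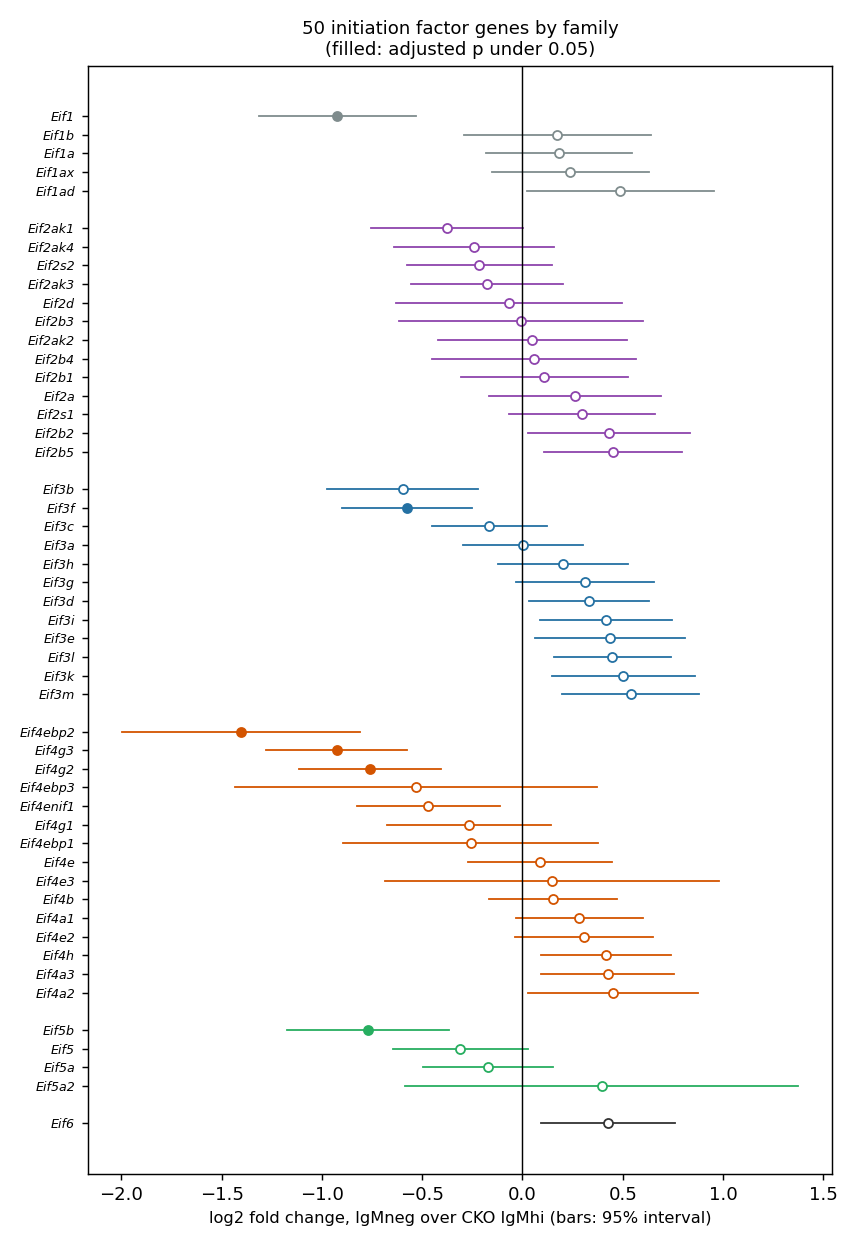
Log2 fold change of IgMneg over CKO IgMhi B-1a cells (horizontal axis) for the 50 initiation factor genes, ordered by family and then by value, with bars for the 95% interval of the limma fit and filled points for an adjusted p under 0.05. The 6 filled points lie left of 0, from Eif4ebp2 at -1.40 to Eif3f at -0.58, while most open Eif3 points and the eIF4A genes lie right of 0.

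Of the scanning factors only Eif1, which encodes the guardian of start codon choice, was called. Eif1 stood at 658, 737 and 700 normalized counts in control libraries 1 to 3, at 1013 in each of the CKO IgMhi libraries, and at 436, 719 and 484 in IgMneg libraries 1 to 3. All IgMneg values were thus below both CKO IgMhi values, and IgMneg library 2 lay among the controls. Eif1 was 1.90-fold lower in IgMneg than in CKO IgMhi cells (log2 -0.92, SE 0.185, limma adjusted p = 0.00731). The mean was 1013 ± 0.529 (SD, n = 2) in CKO IgMhi against 546 ± 152 (SD, n = 3) in IgMneg cells. The other 4 scanning genes, Eif1a, Eif1ax, Eif1b and Eif1ad, had log2 differences of 0.17 to 0.49 in the opposite direction, and none passed. Eif1 spans 100181199 to 100183410 of chromosome 11 in mm9, on the plus strand.

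No gene of the eIF2 arm passed the test. Eif2s1 was at 627, 747 and 576 normalized counts in controls, 685 and 619 in CKO IgMhi and 738, 977 and 711 in IgMneg libraries. The IgMneg values exceeded both CKO IgMhi values, with a log2 difference of 0.30 (95% interval -0.07 to 0.66, adjusted p = 0.306). The partner subunit Eif2s2 had -0.21. Among the 5 eIF2B genes the median log2 difference was 0.11 and 4 were positive. Eif2b5, the catalytic subunit, stood at 598, 642 and 517 in controls, 448 and 485 in CKO IgMhi and 663, 550 and 712 in IgMneg libraries. Its sorts did not overlap, and its log2 difference of 0.45 (SE 0.162) had an adjusted p of 0.0965 in limma and 0.0445 with the mouse block.

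The 4 eIF2 kinases respond to different stresses, Eif2ak1 to heme shortage, Eif2ak2 to double-stranded RNA, Eif2ak3 to unfolded protein in the endoplasmic reticulum and Eif2ak4 to amino acid shortage. Of these Eif2ak3 was the most abundant at 143 per kb, and the others were at 22.4 to 47.3 per kb. Eif2ak3 was at 925, 723 and 789 normalized counts in controls, 837 and 777 in CKO IgMhi and 848, 765 and 559 in IgMneg libraries. Only IgMneg library 3 stood below the rest, and the log2 difference of -0.18 (95% interval -0.56 to 0.20) did not pass (adjusted p = 0.586). Eif2ak1 and Eif2ak4 were lower in every IgMneg library than in either CKO IgMhi library, with log2 differences of -0.38 and -0.24 and adjusted p of 0.21 and 0.468. Eif2ak2 differed by 0.05.

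For description the eIF3 genes were split into a group called core here (Eif3a, b, c, g and i) and a group called outer here (Eif3d, e, f, h, k, l and m). These names are labels and do not give the structure of the mammalian complex. The median log2 difference of IgMneg over CKO IgMhi cells was 0.44 over the 7 outer genes and 0.003 over the 5 core genes. The outer genes are shorter, with a median exon length of 1.89 kb against 2.97 kb. With a trend for exon length and GC taken out, as described further on, the medians were 0.234 and 0.105. For 6 of the 7 outer genes every IgMneg library was above both CKO IgMhi libraries, as for 20.3% of all genes, and none of the 6 passed limma. Eif3f, of the outer group and on chromosome 7 (116077931 to 116086465 in mm9), was the exception and fell. It stood at 1183, 1183 and 1229 normalized counts in controls, 1425 and 1424 in CKO IgMhi and 811, 955 and 1125 in IgMneg libraries. The IgMneg libraries were below all 5 IgMhi libraries, 1.49-fold lower than CKO IgMhi (log2 -0.58, SE 0.154, adjusted p = 0.0311). Leaving out IgMneg library 1 or 2, or either CKO IgMhi library, ended the call, with adjusted p of 0.0686, 0.0616, 0.153 (without CKO IgMhi 2) and 0.236 (without CKO IgMhi 3).

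The members just outside the threshold are named here after their values were seen. Eif3b, a subunit that binds RNA, stood at 591, 771 and 609 normalized counts in controls, 804 and 1178 in CKO IgMhi and 626, 620 and 685 in IgMneg libraries. CKO IgMhi library 3 stood above all others, and the log2 difference of -0.60 missed with an adjusted p of 0.0505 (0.0186 with the mouse block). Eif3m stood at 1074, 1513 and 1175 in controls, 1162 and 1013 in CKO IgMhi and 1498, 1620 and 1618 in IgMneg libraries. Eif3l stood at 1163, 1115 and 1103, then 1121 and 1048, then 1536, 1371 and 1539 in the same order. The IgMneg libraries of Eif3l were above all 5 IgMhi libraries, and those of Eif3m overlapped with control library 2. Eif3m (log2 difference 0.54), Eif3l (0.45) and Eif3k (0.50) had limma adjusted p of 0.0507, 0.0582 and 0.0768, and 0.0172, 0.0247 and 0.023 with the block. In contrast, Eif3a, the large scaffold subunit, was at 1547, 1637 and 1586 in controls, 1665 and 1773 in CKO IgMhi and 1867, 1761 and 1551 in IgMneg libraries. Its log2 difference was 0.003 (95% interval -0.30 to 0.30).

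**Figure D2:**
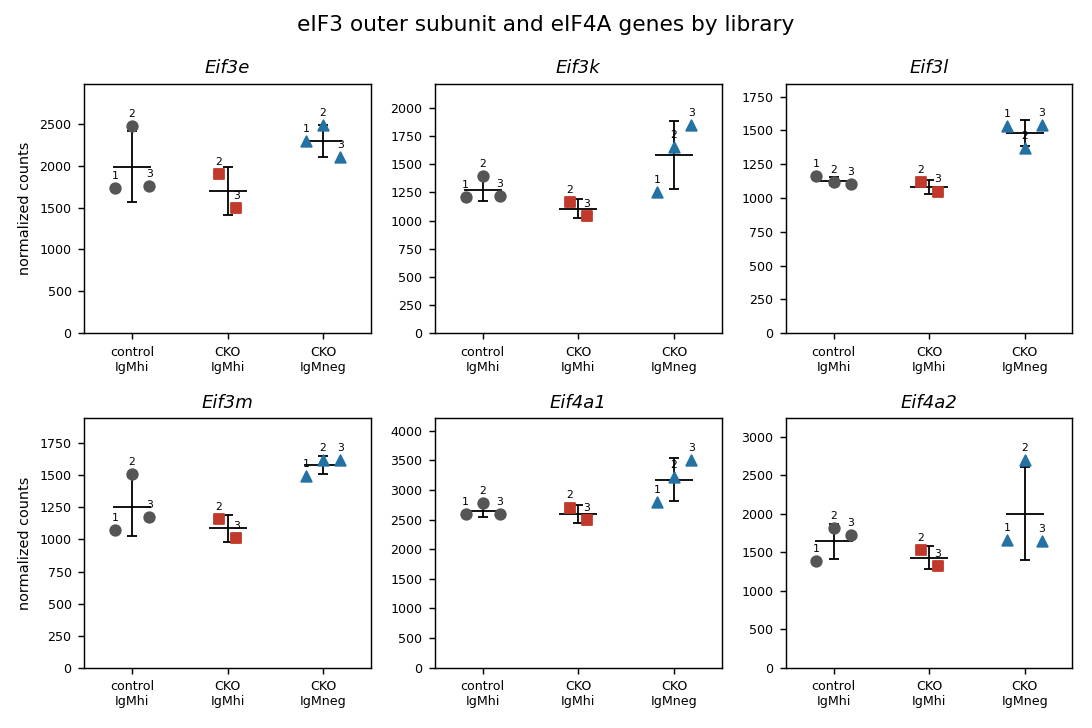
Normalized counts (vertical axes, from 0) of 4 genes of the group called eIF3 outer here and of Eif4a1 and Eif4a2 in each library. Library numbers, horizontal lines for group means and bars for 1 SD (n = 3, 2 and 3) are shown. In each panel the 3 IgMneg libraries lie above both CKO IgMhi libraries, and only for Eif3l and Eif4a1 do they also clear all 3 controls.

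The sequence upstream of Eif3f is shown because this gene was called and carries an E-box, CACGTG, the core site that MYC and related factors are known to bind. Eif4e and Eif4g1, which encode the cap-binding protein and its scaffold, carry E-boxes too and are shown beside it. The windows are from RefSeq promoters on GRCm38.p6, all on the plus strand and 5′ to 3′, with the E-box in capitals.
Eif3f, chr7:108934320-108934379: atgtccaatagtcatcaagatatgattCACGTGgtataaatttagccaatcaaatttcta
Eif4e, chr3:138527177-138527236: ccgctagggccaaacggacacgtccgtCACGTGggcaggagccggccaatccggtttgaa
Eif4g1, chr16:20672646-20672705: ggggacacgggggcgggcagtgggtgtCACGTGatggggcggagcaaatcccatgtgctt
The E-boxes start 68, 64 and 54 bases before the annotated start of Eif3f, Eif4e and Eif4g1. In the 250 bases before the start, 9 of the 40 members with a promoter entry held CACGTG (22.5%), against 845 of 8173 genes of the table (10.3%). The 9 were Eif1b, Eif3f, Eif3k, Eif4a1, Eif4e, Eif4g1, Eif4h, Eif5a and Eif5a2, of which Eif3f alone was called. The ETS core CGGAAG was found on either strand in 47.5% of members and 31.4% of genes, and the cAMP response half-site TGACGT in 20.0% and 12.5%. For the GC box GGGCGG these shares were 72.5% and 64.8%, for CCAAT 35.0% and 41.0% and for TATAAA 7.5% and 7.18%. The E-box of Eif3f lies beside letters that match CCAAT and TATAAA. These matches describe the letters only, and no binding was measured.

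By role the Eif4 genes went in different directions, and not all of them act in the cap complex. The 3 eIF4G scaffold genes were all lower in IgMneg than in CKO IgMhi cells (median log2 -0.76) and 2 fell. The 4 genes of eIF4E inhibitors and transport were lower as well (median -0.50), and 1 fell. Of all genes 5.75% fell, and these are small groups. By contrast, the 5 genes of the eIF4A helicases and their helpers were all higher (median 0.42), and none passed. The sorts did not overlap for any of these 5, as for 20.3% of all genes. With a trend for exon length and GC taken out, as described further on, Eif4g1 was at 0.12 and no eIF4G gene was called.

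Eif4g2 encodes an eIF4G relative that does not bind eIF4E and serves cap-independent initiation, and it had the highest level of the scaffolds, 319 per kb. It stood at 2661, 3548 and 2896 normalized counts in controls, 4349 and 4222 in CKO IgMhi and 2467, 2941 and 2234 in IgMneg libraries. Eif4g2 lies on chromosome 7, 118211499 to 118226544 in mm9, and its exons share 150 bases with the snoRNA gene snoU97 on the same strand. The CKO IgMhi libraries were above all 6 others. The fall was 1.69-fold (log2 -0.76, SE 0.168, adjusted p = 0.0124). Eif4g3, a close relative of Eif4g1 on chromosome 4 (137548937 to 137764423), stood at 396, 484 and 453 in controls, 543 and 631 in CKO IgMhi and 276, 344 and 306 in IgMneg libraries. The 3 groups of Eif4g3 did not overlap with each other, with CKO IgMhi above controls and controls above IgMneg. The fall from CKO IgMhi was 1.90-fold (log2 -0.93, SE 0.166, adjusted p = 0.00402). Eif4g1 ranged from 1307 to 2043 over the 8 libraries, its groups overlapped, and its log2 difference was -0.27 (adjusted p = 0.43). Per kb, Eif4g1 was at 240 and Eif4g3 at 38.9.

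Eif4ebp2, an inhibitor of eIF4E on chromosome 10 (60895245 to 60915417 in mm9), had the largest fold change of the 50 members. It stood at 109, 81.4 and 107 normalized counts in controls, 164 and 225 in CKO IgMhi and 56.3, 65.1 and 102 in IgMneg libraries. The CKO IgMhi libraries were above all others, and IgMneg library 3 lay within the range of the controls. The fall was 2.65-fold (log2 -1.40, SE 0.281, adjusted p = 0.00731). Eif4ebp1, the other main inhibitor, had -0.26 with a 95% interval that included 0. Eif4ebp3 was at 17.3 to 43.8 normalized counts, shares exon sequence with Ankhd1 on the same strand, and had -0.53 (adjusted p = 0.48). Eif4enif1, which carries eIF4E into the nucleus and to P-bodies, had -0.47, with an adjusted p of 0.0964 in limma and 0.0385 with the mouse block.

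**Figure D3:**
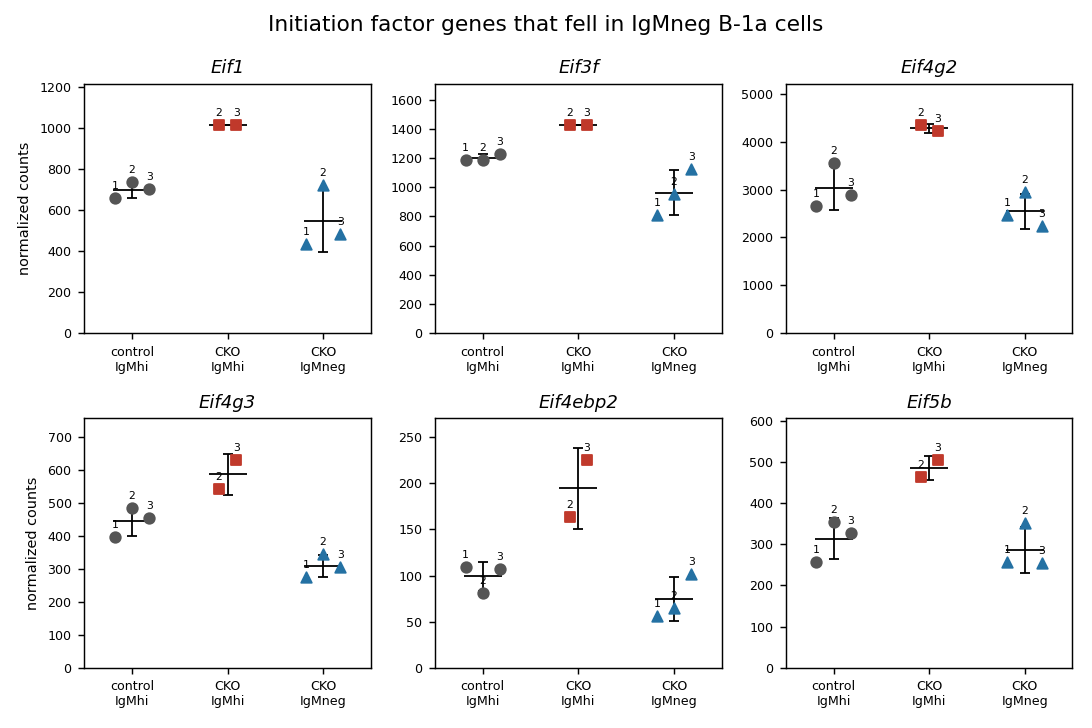
Normalized counts (vertical axes, from 0) of the 6 members that fell in IgMneg B-1a cells, by library, with library numbers, lines for group means and bars for 1 SD (n = 3, 2 and 3). In every panel both CKO IgMhi libraries lie above the 3 IgMneg libraries and above the 3 controls. The 6 were called against these same 2 libraries, which lie above the 3 controls for 16.2% of all genes.

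No cap-binding gene passed limma. Eif4e was at 285, 287 and 295 normalized counts in controls, 359 and 280 in CKO IgMhi and 316, 362 and 336 in IgMneg libraries, with overlap between all groups but control and IgMneg. Its log2 difference of IgMneg over CKO IgMhi was 0.09 (adjusted p = 0.80). Eif4e2, a cap-binding relative linked to translational repression, was at 505, 608 and 462, then 475 and 468, then 529, 654 and 577 in the same order. The sorts did not overlap, and the log2 difference was 0.31 (95% interval -0.04 to 0.65, adjusted p = 0.26). With a trend for exon length and GC taken out, as described further on, it was 0.63 with an adjusted p of 0.04997, just inside the threshold. Eif4e3 was at 27 to 63.7 normalized counts and its groups overlapped.

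Eif4b, the helicase cofactor, stood at 3630, 3533 and 3589 normalized counts in controls, 3435 and 3701 in CKO IgMhi and 4427, 3784 and 3718 in IgMneg libraries. The 3 IgMneg values were above all others, and the log2 difference was 0.15 (95% interval -0.17 to 0.47, adjusted p = 0.577). Eif4a1, the main helicase of the cap complex, stood at 2588, 2772 and 2589, then 2703 and 2488, then 2789, 3224 and 3505. Its IgMneg libraries were above all 5 IgMhi libraries, with a log2 difference of 0.28 (adjusted p = 0.26). Eif4a2, which shares exon positions with snoRNA genes, as Eif4a1 does, and with Rfc4 on the opposite strand, had 0.45 (adjusted p = 0.178). Eif4a3, a subunit of the exon junction complex, had 0.43 and Eif4h, the relative of Eif4b, had 0.42 (adjusted p = 0.103 and 0.104). In DESeq2 Eif4h was called higher, together with Eif3k, Eif3l and Eif3m.

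Eif5b, the GTPase of subunit joining on chromosome 1 (38054855 to 38112424 in mm9), stood at 258, 354 and 327 normalized counts in controls, 464 and 505 in CKO IgMhi and 256, 351 and 254 in IgMneg libraries. CKO IgMhi libraries were again above all others, and IgMneg overlapped with controls. The fall from CKO IgMhi was 1.71-fold (log2 -0.77, SE 0.192, adjusted p = 0.023). Its exons share 1239 bases with Rev1 on the opposite strand, and the use of strand in counting is not given in the sources used here, so its counts are uncertain there. Leaving out IgMneg library 1 or 3, or either CKO IgMhi library, ended the call, with adjusted p of 0.0517, 0.0685, 0.0996 (without CKO IgMhi 2) and 0.246 (without CKO IgMhi 3). Eif5, the GTPase activator of eIF2, was lower in every IgMneg library than in CKO IgMhi and had -0.31 (adjusted p = 0.248).

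Eif5a, which carries hypusine and helps ribosomes through difficult peptide bonds, stood at 1336, 1173 and 1093 normalized counts in controls, 1271 and 1516 in CKO IgMhi and 1140, 1197 and 1375 in IgMneg libraries. The groups overlapped and the log2 difference was -0.17 (adjusted p = 0.536). Eif5a2 was at 16.6 to 71.8 normalized counts and had 0.40 (adjusted p = 0.652). Eif6, which keeps the ribosomal subunits apart, was at 482, 642 and 515 in controls, 479 and 521 in CKO IgMhi and 691, 662 and 663 in IgMneg libraries. Its IgMneg libraries were above all 5 IgMhi libraries and lay close together. The log2 difference was 0.43 (95% interval 0.09 to 0.76), with an adjusted p of 0.106 in limma and 0.0509 with the random block.

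The families were set side by side by the median of their members' log2 difference, as a description. For IgMneg over CKO IgMhi it was 0.05 over 13 Eif2 genes, 0.32 over 12 Eif3 genes, 0.09 over 15 Eif4 genes and -0.24 over 4 Eif5 genes, beside 0.01 over all genes. Of the Eif3 genes 9 were positive, Eif3a among them at 0.003, and 1 fell. For CKO IgMhi over control the medians were 0.025, -0.08, 0.11 and 0.21 in the same order, beside 0.004 over all genes. For IgMneg over control they were 0.09, 0.17, 0.05 and -0.12, beside 0.007 over all genes. The 3 comparisons share libraries in pairs, so their values are not independent. Taken by library, the Eif3 median was 0.015 to 0.13 in IgMneg and -0.20 to -0.13 in CKO IgMhi libraries on the log2 scale, relative to each gene's mean over the 8 libraries. The controls overlapped with both, from -0.16 to 0.09. The Eif5 median was -0.12 to -0.06 in IgMneg, 0.09 to 0.25 in CKO IgMhi and -0.11 to 0.18 in control libraries, and rests on 4 genes. The Eif4 median was -0.024 to 0.026 in IgMneg, -0.006 and 0.075 in CKO IgMhi and -0.065 to -0.022 in control libraries. For Eif4 the sorts thus overlapped, and CKO IgMhi lay above the controls. For Eif2 the 3 groups overlapped.

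**Figure D4:**
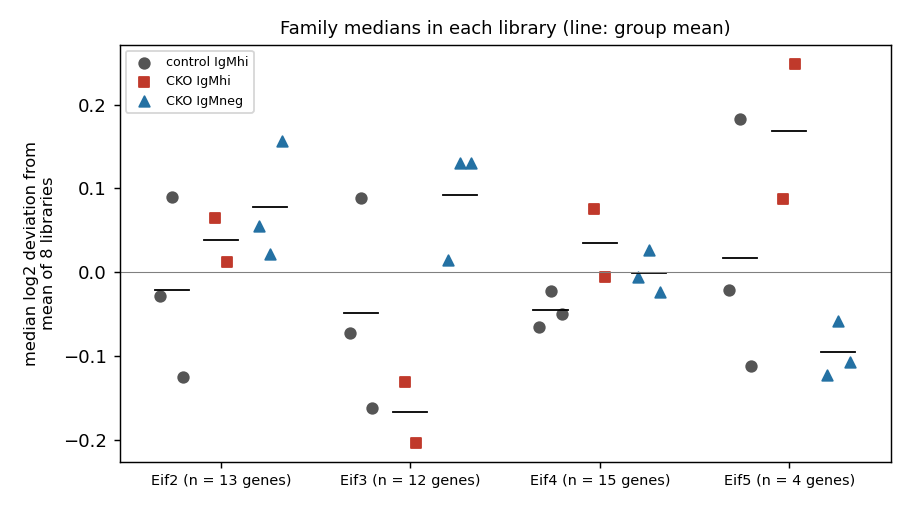
Median log2 deviation of the Eif2, Eif3, Eif4 and Eif5 genes from each gene's mean over the 8 libraries (vertical axis), 1 point per library and a line for each group mean. The IgMneg and CKO IgMhi points do not overlap for Eif3, where IgMneg is higher, and for Eif5, where it is lower, while the controls spread across both. For Eif2 and Eif4 the points of the 2 sorts overlap.

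Between genotypes no member was called. In CKO IgMhi against control IgMhi B-1a cells 0 of 50 passed limma, where 0.179% of all genes did. On recovered reads 0 members passed in edgeR and in DESeq2, which gave an adjusted p for 47 of the 50, where 0.254% and 1.64% of all genes did. At an unadjusted p under 0.05, 6 members were higher (12%, against 7.01% of all genes) and 1 was lower (2.00%, against 2.61%). The 6 were Eif1 (log2 difference 0.54), Eif3b (0.58), Eif4ebp2 (0.96), Eif4g2 (0.51), Eif4g3 (0.40) and Eif5b (0.64), with adjusted p of 0.20 to 0.429, and the lower one was Eif5a2 (-1.01, adjusted p = 0.505). Of these 6, Eif3b alone was not among the members that fell in IgMneg cells, and both comparisons use the same 2 CKO IgMhi libraries. The other named members had log2 differences of -0.003 for Eif2ak3, 0.01 for Eif2s1, -0.01 for Eif4b, 0.11 for Eif3a, 0.25 for Eif3f, -0.32 for Eif2b5, -0.14 for Eif4e2, 0.21 for Eif5a and -0.12 for Eif6.

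Between IgMneg and control IgMhi B-1a cells no member was called either, although 32 of all genes passed limma. Of the 50 members 0 passed limma, where 0.301% of all genes did, and 0 passed edgeR and DESeq2, where 0.433% and 1.76% of all genes did. At an unadjusted p under 0.05, 4 were higher and 5 lower (8% and 10%, against 7.55% and 7.85% of all genes). Eif4g3 had the smallest p, with a log2 difference of -0.52 (SE 0.149, adjusted p = 0.122), and its libraries did not overlap. Eif1 had -0.39 and Eif3f -0.33 (adjusted p = 0.284 and 0.273), while Eif4ebp2 had -0.44, Eif4g2 -0.25 and Eif5b -0.13. On the higher side Eif3l had 0.39 and Eif3m 0.35 (adjusted p = 0.159 and 0.266). The remaining named members had 0.31 for Eif2s1, 0.13 for Eif2b5, -0.18 for Eif2ak3, 0.11 for Eif3a, 0.15 for Eif4b, 0.16 for Eif4e2, 0.04 for Eif5a and 0.31 for Eif6. Controls of these 2 comparisons are the same 3 libraries.

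Gene length moved with these differences across the whole table. Over 9896 genes the Spearman correlation of the log2 difference with annotated exon length was -0.38 for IgMneg over CKO IgMhi, 0.30 for CKO IgMhi over control and -0.23 for IgMneg over control, across genes, which are not independent. Eif4g3, Eif4g2 and Eif5b have long exon sequence (11.0, 9.93 and 7.80 kb), and most Eif3 genes are short (median 2.25 kb). Eif1, Eif3f and Eif4ebp2 also fell but have 2.10, 2.89 and 1.79 kb. Once splines had taken out the trend with length and GC content, 3 members fell (Eif1 at -1.02, Eif3f at -0.63 and Eif4ebp2 at -1.51, adjusted p = 0.00535, 0.0172 and 0.00459) and Eif4e2 rose, beside 2.6% and 2.38% of all genes. Eif4g2, Eif4g3 and Eif5b then had -0.46, -0.48 and -0.53, with adjusted p of 0.0777, 0.0969 and 0.0927. Eif4g1 went from -0.27 to 0.12. The Eif3 median went from 0.32 to 0.12 and the median of the eIF4A genes and helpers from 0.42 to 0.38. Whether the trend is technical was not tested.

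**Figure D5:**
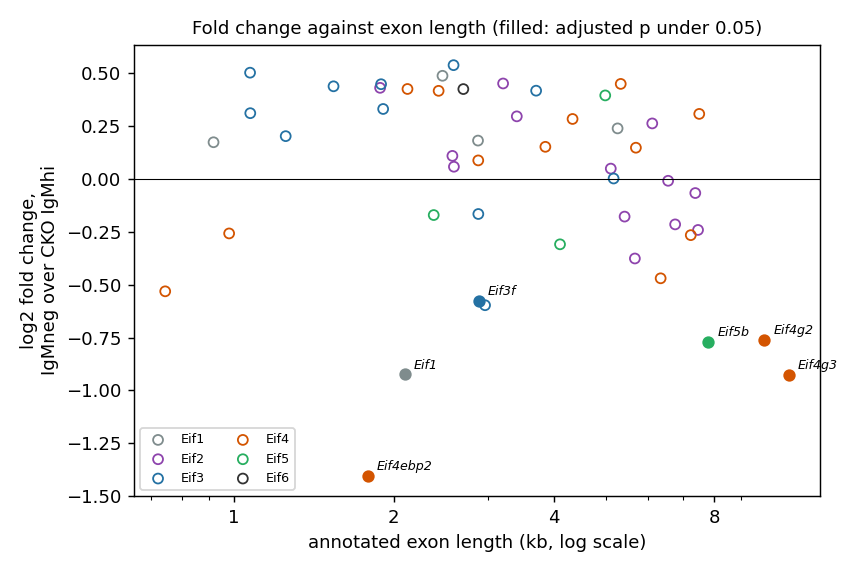
Log2 fold change of IgMneg over CKO IgMhi B-1a cells (vertical axis) against annotated exon length in kb (horizontal log axis) for the 50 members, coloured by family and filled for an adjusted p under 0.05. Eif4g2, Eif4g3 and Eif5b lie at the long end and Eif1, Eif3f and Eif4ebp2 at 1.79 to 2.89 kb, among short members that are mostly above 0.

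The split of calls over all genes also moved with scaling. In IgMneg against CKO IgMhi cells 189 genes rose and 611 fell with the deposited size factors, 12 rose and 366 fell with scaling to total reads, and 236 rose and 257 fell once the length and GC trend was removed. DESeq2 gave 455 and 872, and the random block 603 and 1030. Total scaling put the median log2 difference of all genes at 0.146 between CKO IgMhi and control cells, where it was 0.004, and at -0.085 between the sorts. Under it 4 members fell and 0 rose in IgMneg cells, where 3.44% and 0.113% of all genes did. Eif3f and Eif5b were no longer called (adjusted p = 0.0998 and 0.051). The calls rest on both CKO IgMhi libraries. Without library 3 of that sort 0 members passed (adjusted p of the 6 from 0.108 to 0.246), and without library 2 there were 3 that fell (Eif3b, Eif4ebp2 and Eif4g3) and 0 that rose. Of all genes 0.339% fell and 0.0376% rose without library 3, and 2.36% and 0.188% without library 2. In these fits the remaining library was assumed to vary as the other groups do. Without IgMneg library 3, which stood apart in myeloid and erythroid genes, 5 of the 6 fell, all but Eif5b, and 0 rose, beside 4.2% and 0.678% of all genes.

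Genes that work with the initiation factors were counted from lists of partners. Of 20 genes of poly(A)-binding and cap regulation 19 were in the table, and in IgMneg against CKO IgMhi cells 3 fell and 0 rose, where 5.75% of all genes fell and 1.78% rose. The median log2 difference was -0.38, and -0.19 with the length and GC trend removed. Pabpc1, the main cytoplasmic poly(A)-binding protein and a partner of eIF4G, stood at 1881, 2437 and 2084 normalized counts in controls, 3446 and 3438 in CKO IgMhi and 1496, 1908 and 1623 in IgMneg libraries. Like Eif4g2, it was highest in the CKO IgMhi libraries, and it fell by 1.04 on the log2 scale (SE 0.159, adjusted p = 0.00141). Larp1, an mTOR-regulated repressor of mRNAs for ribosomal proteins, had -1.01 (adjusted p = 0.00227). Mknk2, a kinase that is carried by eIF4G and phosphorylates eIF4E, had -0.71 (adjusted p = 0.0183). None of the 19 passed in the other comparisons, where Pabpc1 had 0.70 in CKO IgMhi over control (adjusted p = 0.0917) and -0.35 in IgMneg over control (adjusted p = 0.261).

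For elongation and termination factors 14 of 15 genes were in the table. In the same comparison 2 rose and 0 fell, beside the 1.78% and 5.75% of all genes, with a median log2 difference of 0.29. Eef1b2 and Eef1d, subunits of the exchange factor that recharges eEF1A, had 0.66 and 0.57 (SE 0.178 and 0.156, adjusted p = 0.0324 and 0.0334). The summed level of the list was 177200 to 178600 normalized counts in IgMneg, 129900 to 135300 in CKO IgMhi and 134200 to 153900 in control libraries. Most of the sum was Eef1a1, which did not pass (log2 difference 0.44, limma adjusted p = 0.4965). Eef2, the next highest, did not pass either (0.34, limma adjusted p = 0.414). Of 15 genes of the integrated stress response, which eIF2 kinases start, 12 were in the table and 1 fell, a share close to the 5.75% of all genes. It was Ppp1r15b, the constitutive partner of the phosphatase that reverses the action of these kinases, at -0.55 (SE 0.148, adjusted p = 0.0324). The effector Atf4 had 0.30 and its target Ddit3 0.41 (adjusted p = 0.32 and 0.372). None of the genes of these 2 lists passed in the other comparisons.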

How the data were processed

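RNA was sequenced from 8 libraries of sorted splenic B-1a cells. After ribosomal RNA removal the authors aligned reads to mm9 with TopHat 2.0.13, counted them with HTSeq 0.6.0 and deposited normalized counts, a signal in which the reads of each library were divided by 1 DESeq2 size factor (R 3.3.1). Within 0.01 read, 100% of values were a whole number of steps of a size fixed for the library, so reads were recovered for count tests. Names had become spreadsheet dates for 17 genes.

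In R 4.3.3, limma 3.58.1 was fitted with a trend to log2(normalized count + 1) over 8 libraries and 3 groups, two-sided, for genes that reached 10 normalized counts in 2 libraries or more. Fold changes are on this scale. p-values were adjusted by Benjamini-Hochberg over 10627 genes, with a threshold of 0.05. They measure the spread between libraries, since pooling of mice is not given in the sources used here. The fit was tested on simulated data. Position, exon length and GC content came from GENCODE vM1 on mm9, matched by name for 10025 of 10782 gene names (93.0%). Promoters came from RefSeq, GRCm38.p6, for 40 members, and 6 motifs were counted on both strands.

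CKO numbers 2 and 3 were taken to name the mouse. Deviations of same-numbered libraries from their group means correlated at 0.257 and 0.197, and the within-mouse correlation in limma was 0.255. The deviations of the 2 CKO IgMhi libraries mirror each other, so crossed numbers give -0.257 and -0.197 by construction. The values are thus not independent and do not settle that equal numbers name 1 mouse. Alternatives were pseudocounts of 0.5 and 5, a filter left out or set at 50 normalized counts, TMM, quantile and total scaling, edgeR 4.0.16 and DESeq2 1.42.0 on recovered reads, the 2 groups compared alone, the mouse as a random block or as a term, splines on length and GC content with 4 degrees of freedom, and each library left out.

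The members and the lists were chosen with earlier results of these data known. Named with values in every library were, by rule, up to 4 called members per family in each comparison of IgMneg cells, any called between genotypes, and the member with the highest mean normalized count in each role without a call. These were Eif1, Eif3f, Eif4g2, Eif4g3, Eif4ebp2, Eif5b, Eif2s1, Eif2b5, Eif2ak3, Eif3a, Eif4b, Eif4e2, Eif5a and Eif6. Up to 3 called genes were named per partner list. Other genes with values were chosen after these were seen. Some rows of other genes were not analysed here.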

Additional observations from a re-analysis of the deposited data

How the results depend on the processing

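With mouse number as a random replicate block, 6 members were higher and 8 lower in IgMneg than in CKO IgMhi cells, 11 and 9 in the CKO libraries alone with mouse as a term (beside 10.4% and 12.8% of all genes), and 4 and 5 with the block and the length and GC trend removed (beside 4.82% and 4.17%), an alternative chosen after seeing the data. Without the block, 1 member was higher with a pseudocount of 5 (1.89% of all genes), 2 with a filter of 50 normalized counts (2.73%), 2 with quantile normalization (2.28%), 4 with DESeq2 (4.46%), 1 in the 2 groups alone (1.67%) and 1 with the length and GC trend removed (2.38%), which left 3 lower (2.6%). Leaving out 1 library at a time gave 0 to 1 higher and 0 to 7 lower. Between genotypes, and between IgMneg and control cells, 0 members were called under every alternative run.

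Of 192 family medians under the alternatives, 25 moved by more than the spread between libraries. Total scaling gave 0.169 for Eif2, 0.065 for Eif3, 0.255 for Eif4 and 0.353 for Eif5 in CKO IgMhi over control, -0.045 for Eif2, 0.227 for Eif3 and -0.007 for Eif4 in IgMneg over CKO IgMhi, and 0.099 for Eif4 in IgMneg over control. Removing the length and GC trend gave -0.101 for Eif2 and -0.053 for Eif4 in CKO IgMhi over control, and 0.139 for Eif2 and 0.124 for Eif3 in IgMneg over CKO IgMhi. In IgMneg over control, the Eif4 median was 0.145 with the filter of 50 and 0.117 with quantile normalization. With 1 library left out, the Eif4 median was -0.013 to 0.11, -0.142 to 0.099 and 0.028 to 0.135 in CKO IgMhi over control, IgMneg over CKO IgMhi and IgMneg over control, and the Eif5 median in the last was -0.214 to -0.003.

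For single genes, 838 of 896 values kept their direction and their side of the threshold, most of them for genes not called in that comparison. The 22 values that lost a call were all of the 6 members called between the sorts. Over 22 alternatives each, Eif5b lost it in 7, Eif3f in 6, Eif4g2 and Eif4g3 in 3, Eif1 in 2 and Eif4ebp2 in 1. A call was gained in 6 values. The 30 that turned direction were of genes near 0 and not called. In CKO IgMhi over control, these were Eif2ak3 at 0.004 with TMM, 0.142 with total scaling and 0.029 with the random block, Eif2s1 at -0.047 with quantile normalization and -0.003 with the block, Eif4b at 0.039 with quantile normalization, 0.137 with total scaling and 0.013 with the block, and Eif6 at 0.027 with total scaling. In IgMneg over CKO IgMhi, Eif3a was -0.005 with TMM, -0.093 with total scaling, -0.002 with edgeR, -0.012 with the block and -0.056 with mouse as a term, and Eif2ak3 was 0.02 with the length and GC trend removed and 0.004 with the block as well. Eif5a in IgMneg over control was -0.013 with quantile normalization. With 1 library left out, the ranges were -0.071 to 0.116 for Eif2s1, -0.083 to 0.095 for Eif2ak3, -0.061 to 0.046 for Eif4b and -0.202 to 0.004 for Eif6 in CKO IgMhi over control, -0.056 to 0.078 for Eif3a in IgMneg over CKO IgMhi and -0.035 to 0.123 for Eif5a in IgMneg over control. The causes of these shifts were not tested. In control library 2 the median gene had 31 reads, against 332 in the deepest library, so members of low level such as Eif4e3, Eif4ebp3 and Eif5a2 had wide intervals. With 2 CKO IgMhi libraries, a member that missed the threshold is not shown to be equal between the groups.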
